A study of Saccharomyces cerevisiae and Saccharomyces cerevisiae x Saccharomyces paradoxus with 20 samples.

Results

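Divergent promoters are stretches between 2 genes that are transcribed away from each other, and 526 of the 3498 nucleosome-free regions (NFRs) of the series, or 15%, lay in such a place. An NFR entered this set when it overlapped the 300 bp upstream of the start of at least 1 gene on the W (Watson) strand and of at least 1 gene on the C (Crick) strand, and when it lay more than 50000 bp from the ends of its chromosome. The choice used positions only and no measured value. The 526 NFRs stood between 523 pairs of genes with 1045 genes in all, since 3 pairs (FRS1 and REX2, PRE6 and YOL038C-A, RRP15 and KAR3) held 2 NFRs each. Of the other NFRs of the series, 2206 lay upstream of genes on 1 strand, 361 upstream of no gene start of the RNA counts, and 405 near chromosome ends. A gene absent from the RNA counts could not place an NFR. Some NFRs of the first 2 of these classes may therefore lie at divergent promoters.

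Chromatin accessibility was measured by FAIRE-Seq, which recovers DNA that is not bound to protein after formaldehyde fixation, and transcript abundance by RNA-Seq of polyadenylated RNA. The samples were haploid strains UWOPS05_217_3 (UW) and DBVPG1373 (DBV) of S. cerevisiae, haploid strain CBS432 (CBS) of S. paradoxus, and 2 diploid hybrids, UW-CBS and DBV-CBS, all grown in the rich medium YEPD to log phase. Each of the 10 groups of strain and assay had 2 biological replicates, 20 samples in all, and no strain carried a treatment or an engineered allele that the labels name. The RNA values of the DBV cross were not used here, so RNA comparisons are those of the UW cross. CBS432 is listed as S. cerevisiae in the organism field of its labels and was taken as S. paradoxus, as the series' own design text has it.

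In yeast, the NFR upstream of a gene is where general regulatory factors, chromatin remodelers and the transcription machinery gain access to DNA, and neighbouring nucleosomes flank it on both sides. The genome is compact, and divergent genes often start close to each other, so that 1 accessible stretch may serve 2 core promoters that each have their own start site. Classical divergent pairs such as GAL1 and GAL10 are regulated together through binding sites between them, but many divergent neighbours have unrelated functions. In a hybrid, the alleles of both species sit in 1 nucleus with the same regulatory proteins, so a difference between alleles is termed a cis effect. The parental difference minus the one between alleles is termed a trans effect, and either of the 2 may be the larger. Here a log2 difference is always S. cerevisiae over S. paradoxus, and a difference was called when edgeR's quasi-likelihood test gave an adjusted p under 0.05 over the whole table.

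The distance between the 2 start codons was 328 bp at the median, with quartiles of 250 and 488 bp and a range from −262 to 1017 bp, where negative values stand for 3 pairs of genes that overlap. Divergent NFRs were wider than NFRs upstream of genes on 1 strand, with a median of 285 bp (quartiles 199 and 392 bp) against 222 bp. Their median FAIRE signal was between 193 and 276 CPM (the count divided by a total, times 1000000) in the 16 columns of counts, against 155 to 193 CPM for NFRs upstream of 1 strand. For these medians the total is that of the column, so each allele column of a hybrid has its own. For the named NFRs and their genes further on, it is the total of the library, with both alleles of a hybrid together. Hybrid values of the 2 kinds are therefore not on 1 scale. Per kilobase of NFR the medians were 707 to 979 CPM and 721 to 882 CPM. The divergent median was still the higher one in every column but DBVPG1373 replicate 2 (707 against 721 CPM), though by less. In UWOPS05_217_3 replicate 1, for example, it was 957 against 878 CPM per kilobase, and 273 against 190 CPM before division by width. So, against NFRs upstream of 1 strand, the greater width went with much of the higher signal but not with all of it. A higher signal per kilobase was not particular to divergent NFRs. NFRs upstream of no counted gene start had a higher median than divergent NFRs in most columns and a lower one in others. In UWOPS05_217_3 replicate 2 it was 933 against 838 CPM per kilobase, and in CBS432 replicate 1, at the UW sites, 915 against 970. A mean count under 100 was found for 25 of the 526 NFRs, and 2 were at 0 in every column of the UW cross. FAIRE totals were 2561228 to 4198250 in haploid columns and 1339393 to 2036883 in columns of hybrid alleles, and RNA totals were 36188856 to 106845771. Totals are sums over sites in which a read can count more than once, so they are not numbers of reads. The mating pathway gene FUS3, which a/alpha diploids repress, had 259 to 296 CPM in the haploid RNA libraries and 0.338 and 0.921 CPM in the hybrid libraries, as the labelled ploidy has it. The labels do not say how the replicates were separated beyond calling them replicates, and p-values measure the spread between these samples.

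The gene pairs were not matched in level. On a scale of CPM per length of gene in the UW and CBS libraries, the log2 levels of the W gene and the C gene had a Pearson r of 0.113 over 523 pairs, compared with 0.056 for tandem and 0.192 for convergent neighbours. These points share libraries and neighbouring positions, and the value is a description. The gene with the higher level had 2.45 times the level of its partner at the median, and in 59 pairs the ratio was over 10. At 265 of the 526 NFRs (50.4%) the start codon nearer to the centre of the NFR belonged to the gene with the higher level. Of the 1045 genes, 141 (13.5%) overlapped another gene in the table or in RefSeq's yeast annotation, and because the RNA kit did not mark strand, reads of such genes and of the gene they overlap cannot be told apart.

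Which divergent NFRs differed between the species was asked first in the haploid parents. Between UWOPS05_217_3 and CBS432, 112 of 526 NFRs were called (21.3%), against 20.4% of all NFRs of the series. UWOPS05_217_3 was higher at 59 of them (10.8% of all NFRs) and CBS432 at 53 (9.58% of all NFRs). Between DBVPG1373 and CBS432, which uses the same CBS432 libraries, 35 were called (6.65%, against 8.23% of all NFRs), 19 higher in DBVPG1373 and 16 in CBS432 (4.26% and 3.97% of all NFRs). This count ranged widely with the libraries, at 7 and 14 without CBS432 replicate 1 or 2 and 82 and 63 without DBVPG1373 replicate 1 or 2. The median absolute log2 difference of the divergent NFRs was 0.474 between UWOPS05_217_3 and CBS432, and that of all NFRs was 0.515. The count between UWOPS05_217_3 and CBS432 depended on the libraries too, since leaving out 1 of the 4 at a time gave 48 (without CBS432 replicate 2), 60 and 67 (without UWOPS05_217_3 replicate 2 or 1) and 63 (without CBS432 replicate 1) in place of 112.

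In the hybrids, 136 divergent NFRs had a cis effect between the UW and CBS alleles (25.9%, against 24.8% of all NFRs), and 157 between the DBV and CBS alleles (29.8%, against 29.8%). The S. cerevisiae allele was the higher one at 77 and the S. paradoxus allele at 59 in the UW-CBS hybrid (15.1% and 9.69% of all NFRs), and at 93 and 64 in the DBV-CBS hybrid (17.5% and 12.3% of all NFRs). This split rested on the scaling of the allele columns: with each allele column scaled on its own by TMM, it was 59 and 69 in the UW-CBS hybrid and 76 and 86 in the DBV-CBS hybrid. With 1 hybrid library left out and the spread taken from the haploid parents, the UW-CBS calls numbered 32 (without replicate 1) or 13 (without replicate 2) and the DBV-CBS calls 2 or 5. Cis and trans calls given further on as lost without a hybrid library come from fits of this kind, which change both the libraries and the source of the spread. With both libraries kept but not paired by library, 58 and 115 NFRs were called. The 2 hybrids share no library. The log2 cis effects of the 526 NFRs in the UW-CBS and the DBV-CBS hybrid had a Pearson r of 0.783, and over all 3498 NFRs r was 0.669. Spearman rho was 0.781 and 0.743. Cis effects were called in both hybrids at 90 NFRs, which is 66.2% of those called with the UW allele and 57.3% of those called with the DBV allele, and all 90 had the same sign. Over all NFRs these shares were 67% and 55.6%, with the same sign at 575 of 580. Of the 112 NFRs called between the parents, 69 (61.6%) were also called between the alleles of the UW-CBS hybrid, all 69 with the same sign, and these were 50.7% of the 136 cis effects. The shares over all NFRs were 66% and 54.3%, with the same sign at 469 of 470.

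**Figure D1:**
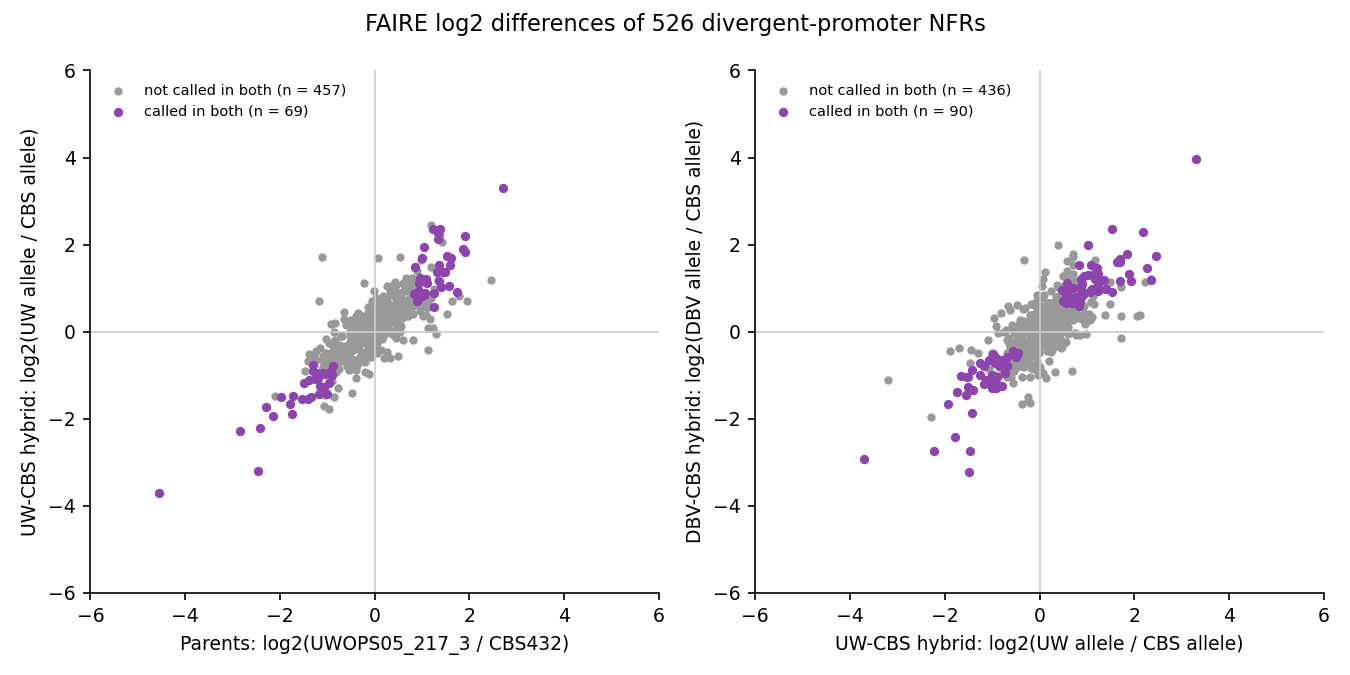
Each point is 1 of 526 divergent-promoter NFRs, and all axes are FAIRE log2 differences of S. cerevisiae over S. paradoxus. The left panel sets the parental difference (x) against the cis effect in the UW-CBS hybrid (y), with 69 NFRs called in both in purple, and the right panel sets the cis effect in the UW-CBS hybrid (x) against that in the DBV-CBS hybrid (y), with 90 called in both, which all lie in the quadrants of equal sign.

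At a mean count of 100 or more, the largest difference toward S. cerevisiae, in the parents and in the UW-CBS hybrid, was between YPC1, a ceramidase of the endoplasmic reticulum, and the small gene YBR182C-A (chromosome II, 595796 to 596025, sacCer3). Its FAIRE signal was 318 and 568 CPM in the UWOPS05_217_3 libraries and 52.8 and 85.1 CPM in the CBS432 libraries. Within the UW-CBS hybrid, where CPM refers to the sum of both alleles of a library, the UW allele had 198 and 248 CPM and the CBS allele 30.5 and 15.9 CPM. The groups did not overlap in either comparison, and the DBV-CBS hybrid showed the same order, with 298 and 221 CPM for the DBV allele and 13.5 and 19.6 CPM for the CBS allele. The log2 differences were 2.71 ± 0.37 (SE, n = 2 per strain, adjusted p = 3.22e-05 by edgeR's quasi-likelihood test) in the parents, 3.30 ± 0.35 (adjusted p = 2.69e-17) in the UW-CBS hybrid and 3.97 ± 0.31 (adjusted p = 3.65e-05) in the DBV-CBS hybrid, and all were called without any 1 library. YPC1 RNA went with it, at 56.6 and 65.7 CPM in UWOPS05_217_3 and 10.6 and 10.6 CPM in CBS432, and at 14.5 and 17.9 CPM for the UW allele against 3.17 and 3.53 CPM for the CBS allele. That is a log2 difference of 2.51 ± 0.14 in the parents (adjusted p = 1.18e-05) and of 2.26 ± 0.19 between the alleles (adjusted p = 3.07e-24). YBR182C-A, whose start lies 560 bp from that of YPC1, had only 1.19 to 2.35 CPM in the haploids, and its log2 differences of 0.68 ± 0.35 and −0.09 ± 0.52 were not called. The difference between the effects on the 2 genes was itself called, at 1.81 ± 0.27 in the parents (adjusted p = 0.0022) and 2.36 ± 0.39 between the alleles (adjusted p = 0.00832).

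At the same minimum count, the next largest parental differences toward UWOPS05_217_3 were at the NFRs of PUT7 and RSO55 and of SEC66 and NPL4. The first (chromosome XII, 705108 to 705181) had 114 and 60.5 CPM in UWOPS05_217_3 and 21.3 and 10.8 CPM in CBS432, a log2 difference of 2.45 ± 0.53 (adjusted p = 0.00246), while its cis effect of 1.18 ± 0.49 was not called (adjusted p = 0.0608). RNA of PUT7 went the other way, with 41.6 and 36.4 CPM in UWOPS05_217_3 and 69.2 and 64.2 CPM in CBS432. Its log2 difference was −0.79 ± 0.11 in the parents (adjusted p = 0.000645) and −0.93 ± 0.11 between alleles (adjusted p = 1.49e-14), and PUT7 overlaps YLR282C in the table. RSO55, which overlaps YLR280C, had −0.21 ± 0.24 in the parents, not called, and −1.05 ± 0.34 between alleles (adjusted p = 0.00372), a call lost without hybrid replicate 1, at −0.98. The second NFR (chromosome II, 578001 to 578393) had 634 and 409 CPM in UWOPS05_217_3 and 178 and 98.6 CPM in CBS432, a log2 difference of 1.94 ± 0.32 (adjusted p = 0.000254), and its cis effect of 0.71 ± 0.30 was not called (adjusted p = 0.0635). Both of its genes had slightly more RNA in UWOPS05_217_3, at 0.24 ± 0.08 for SEC66, a subunit of the Sec63 complex of protein translocation, and 0.35 ± 0.11 for NPL4, a cofactor of the Cdc48 segregase. Both small differences were called, with adjusted p of 0.0376 and 0.0239, and both calls were lost without CBS432 replicate 2, at 0.19 and 0.24, or without UWOPS05_217_3 replicate 1, at 0.23 and 0.30, and that of SEC66 also without CBS432 replicate 1, at 0.27.

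The largest difference of the 526 NFRs in the UW cross, in the parents and between alleles, lay toward S. paradoxus, between RPN9, a subunit of the proteasome lid, and YDR426C (chromosome IV, 1321933 to 1322027). This NFR had 11.4 and 3.81 CPM in UWOPS05_217_3 and 201 and 147 CPM in CBS432. In the UW-CBS hybrid the UW allele had 2.83 and 7.22 CPM and the CBS allele 98 and 40.1 CPM. In the DBV-CBS hybrid the DBV allele had 5.09 and 9.41 CPM and the CBS allele 39.2 and 70.7 CPM. The 3 comparisons showed groups that lay far apart, with log2 differences of −4.55 ± 0.52 (adjusted p = 7.26e-06), −3.70 ± 0.57 (adjusted p = 9.19e-09) and −2.92 ± 0.44 (adjusted p = 0.00105). RPN9 RNA was also lower from S. cerevisiae, but by far less, at 325 and 275 CPM in UWOPS05_217_3 and 389 and 354 CPM in CBS432, and at 151 and 147 CPM for the UW allele and 178 and 190 CPM for the CBS allele. These are log2 differences of −0.33 ± 0.10 (adjusted p = 0.0278) and −0.30 ± 0.05 (adjusted p = 1.67e-09). The parental call of RPN9 was lost without CBS432 replicate 1, at −0.28, or without UWOPS05_217_3 replicate 2, at −0.22, and the cis call without hybrid replicate 1, at −0.37, or replicate 2, at −0.24. The FAIRE call in the DBV-CBS hybrid was lost without replicate 1 of that hybrid, at −2.91, or replicate 2, at −2.94. YDR426C, which overlaps SNX41, had 0.43 ± 0.30 and 0.40 ± 0.30, neither called.

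At GRC3 and PRP19 (chromosome XII, 68466 to 68613) a wide difference in accessibility stood beside RNA of both genes that was not called. GRC3 is a polynucleotide kinase of ribosomal RNA processing, and PRP19 a ubiquitin ligase of the spliceosome. FAIRE signal was 62.6 and 69.6 CPM in UWOPS05_217_3 and 444 and 291 CPM in CBS432, and 27.3 and 45.5 CPM for the UW allele against 150 and 181 CPM for the CBS allele. The log2 differences were −2.43 ± 0.34 in the parents (adjusted p = 3.47e-05), −2.22 ± 0.36 in the UW-CBS hybrid (adjusted p = 5.63e-08) and −2.74 ± 0.29 in the DBV-CBS hybrid (adjusted p = 0.000187, lost without replicate 1 of that hybrid, at −2.48), with no overlap of groups. PRP19 RNA had 273 and 254 CPM in UWOPS05_217_3 and 273 and 250 CPM in CBS432, and GRC3 RNA 178 and 159 CPM and 177 and 176 CPM. The log2 differences of the RNA were −0.01 ± 0.09 and −0.09 ± 0.09 in the parents, and 0.10 ± 0.05 and −0.09 ± 0.06 between alleles.

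The NFR of ALG12 and ZNG1 (chromosome XIV, 678517 to 678625) had the third largest parental difference toward CBS432 at a mean count of 100 or more, and its genes were called in opposite directions. It had 60.8 and 36.2 CPM in UWOPS05_217_3 and 261 and 220 CPM in CBS432, a log2 difference of −2.30 ± 0.38 (adjusted p = 0.000254). RNA of ALG12, a mannosyltransferase of N-glycosylation, was 315 and 337 CPM in UWOPS05_217_3 and 206 and 205 CPM in CBS432. RNA of ZNG1, a GTPase that delivers zinc, was 174 and 162 CPM and 260 and 248 CPM. Both genes had groups that did not overlap, and the difference between their log2 differences of 0.65 ± 0.09 and −0.61 ± 0.08 was 1.26 ± 0.13 (adjusted p = 0.000673). Between the alleles ZNG1 kept a log2 difference of −0.66 ± 0.06 and ALG12 one of 0.15 ± 0.05 (called, but not without hybrid replicate 1, at 0.05, or replicate 2, at 0.24), and the difference of 0.80 ± 0.08 was called (adjusted p = 0.00252).

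Of the NFRs with the largest cis effects at this mean count, 3 had not been among the largest between the parents. At TUF1, the mitochondrial elongation factor Tu, and YOR186C-A (chromosome XV, 683836 to 683939) the UW allele had 87.3 and 43 CPM and the CBS allele 8.79 and 14.1 CPM, a log2 difference of 2.45 ± 0.52 (adjusted p = 4.6e-05). TUF1 RNA differed by only 0.07 ± 0.03 between these alleles (adjusted p = 0.0461, not called at 0.07 without either library). At UTP14, a factor of the small subunit processome, and YML094C-A (chromosome XIII, 82694 to 82910) the UW allele had 87.6 and 44.1 CPM and the CBS allele 22 and 7.22 CPM, a log2 difference of 2.27 ± 0.50 (adjusted p = 8.89e-05), while RNA of UTP14 was not called, at −0.04 ± 0.03. At NOP9, a binding protein of ribosomal RNA precursors, and YJL009W (chromosome X, 419510 to 419842) the order was reversed, with 70.3 and 41.5 CPM for the UW allele and 185 and 232 CPM for the CBS allele. The log2 difference was −1.93 ± 0.32 (adjusted p = 1.9e-07), and NOP9 RNA was not called between alleles, at −0.08 ± 0.04. These 3 cis effects had the same sign in the DBV-CBS hybrid, at 1.73, 1.47 and −1.66, all called. With 1 hybrid library left out and the spread taken from the haploid parents, the UW-CBS calls were lost at TUF1 without replicate 1 (1.61), and at UTP14 and NOP9 without replicate 2 (1.99 and −1.40). The DBV-CBS calls of all 3 were lost without either library, at 1.26 and 2.24 for TUF1, 1.72 and 1.21 for UTP14 and −1.46 and −1.86 for NOP9.

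**Figure D2:**
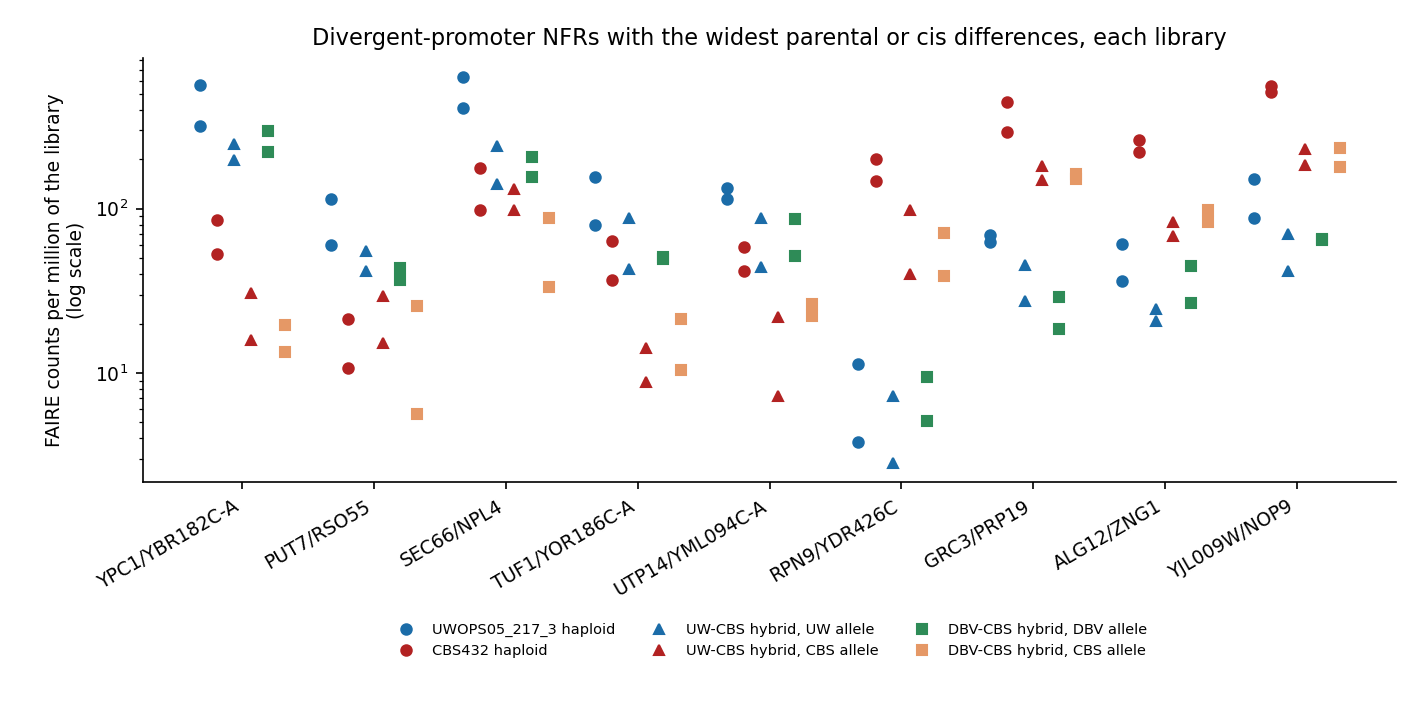
FAIRE signal in CPM of the library (log scale) of the 9 divergent NFRs with the largest parental or cis differences, 1 point per library. Circles are haploid strains, triangles alleles of the UW-CBS hybrid and squares alleles of the DBV-CBS hybrid, and at the 5 NFRs on the left the S. cerevisiae points lie above the CBS points of the same kind, at the 4 on the right below them.

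At the limits of the choice, the NFR of SIZ1 and ADE8 (chromosome IV, 1288970 to 1289107) lay 299 bp from a start codon and was included, with log2 differences of 1.38 in the parents and 2.36 between alleles, and that upstream of RKM3 lay 300 bp away and was not, with 0.18 and 0.44. The NFR of MSL1 and PRI1 lay 50138 bp from the last counted position of its chromosome and was included (1.08 and 0.38). That of GRX2 and EMI1, at 49926 bp from such a position, was not (−0.40 and −0.66).

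RNA of the genes at divergent NFRs differed between species about as often as RNA of other genes. Between the parents 555 of 1045 genes were called (53.1%, against 54.6% of all 4995 genes), 267 higher in UWOPS05_217_3 and 288 in CBS432 (28.2% and 26.4% of all genes). Between the alleles of the UW-CBS hybrid 707 were called (67.7%, against 68.6%), 301 with the UW allele higher and 406 with the CBS allele higher (31.8% and 36.7% of all genes). The trans effect, tested as the parental minus the hybrid difference, was called for 266 genes (25.5%, against 25.9%). Of these, 154 were more toward S. cerevisiae in the parents than in the hybrid and 112 more toward S. paradoxus (15.3% and 10.6% of all genes). This fit paired parental libraries by replicate number and alleles by hybrid library, and without both terms it called 126. Without hybrid replicate 1 or 2 the cis calls numbered 263 or 254 and the trans calls 115 or 94, and without any 1 haploid library the trans calls were 317 to 370. With TMM scaling over all columns the trans calls numbered 273 and their split was 105 and 168, so the direction of trans effects as a whole is not given. Median absolute log2 differences of RNA were 0.324 in the parents and 0.275 in the hybrid, smaller than those of 0.474 and 0.483 for FAIRE at the same NFRs. FAIRE differences were also less precise, with a parental SE of 0.30 at the NFR of RRP43 and of 0.09 for RRP43 RNA, for example. Error raises a median of absolute values, so these medians do not rank the true sizes of effect.

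The design of the genome offers 2 genes for each NFR, and the second question was whether the effects on both went together. Between the alleles of the hybrid both genes were called in 234 of 523 pairs, 138 of them in 1 direction and 96 in opposite directions. These are 26.4% and 18.4% of the pairs, where 26.8% and 21.1% of all neighbouring pairs of genes had both called in 1 direction and in opposite directions. A single gene was called in 240 pairs (background 41.4%) and none in 49. Between the parents both were called in 138 pairs, 85 in 1 direction and 53 in opposite directions (background 17.8% and 12.4% of all neighbouring pairs), a single gene in 280 (background 48.7%) and none in 105. Trans effects were called on both genes of 39 pairs, 30 in 1 direction and 9 in opposite directions (background 4.95% and 2.72%), and on a single gene of 189 pairs (background 36.5%).

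The log2 differences of the W gene and of the C gene were weakly related over the 523 pairs. Pearson r was 0.211 (Spearman rho 0.174) in the parents, 0.210 (0.152) between alleles and 0.169 (0.198) for trans effects. These correlations are descriptions, since the pairs share libraries and lie beside each other on chromosomes. Without genes that overlap any other gene, r was 0.245 in the parents and 0.225 between alleles over 398 pairs. The test of the difference between the 2 genes was called in 258 pairs in the parents (49.3%, against 51.9% of all neighbouring pairs) and in 280 pairs between alleles (53.5%, against 54.9%). In the parents the W gene was the one more toward S. cerevisiae in 126 pairs and the C gene in 132 (26% and 25.8% of all neighbouring pairs, by the first and second gene), and between alleles in 142 and 138 (26.9% and 28%). So for about as many divergent pairs as for other neighbours the effect on 1 gene was shown to differ from that on the other. Of the 258 pairs, 180 (69.8%) were also called between alleles, 177 of them with the same sign. Over all neighbouring pairs this share was 72.6%, with the same sign in 1813 of 1894.

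**Figure D3:**
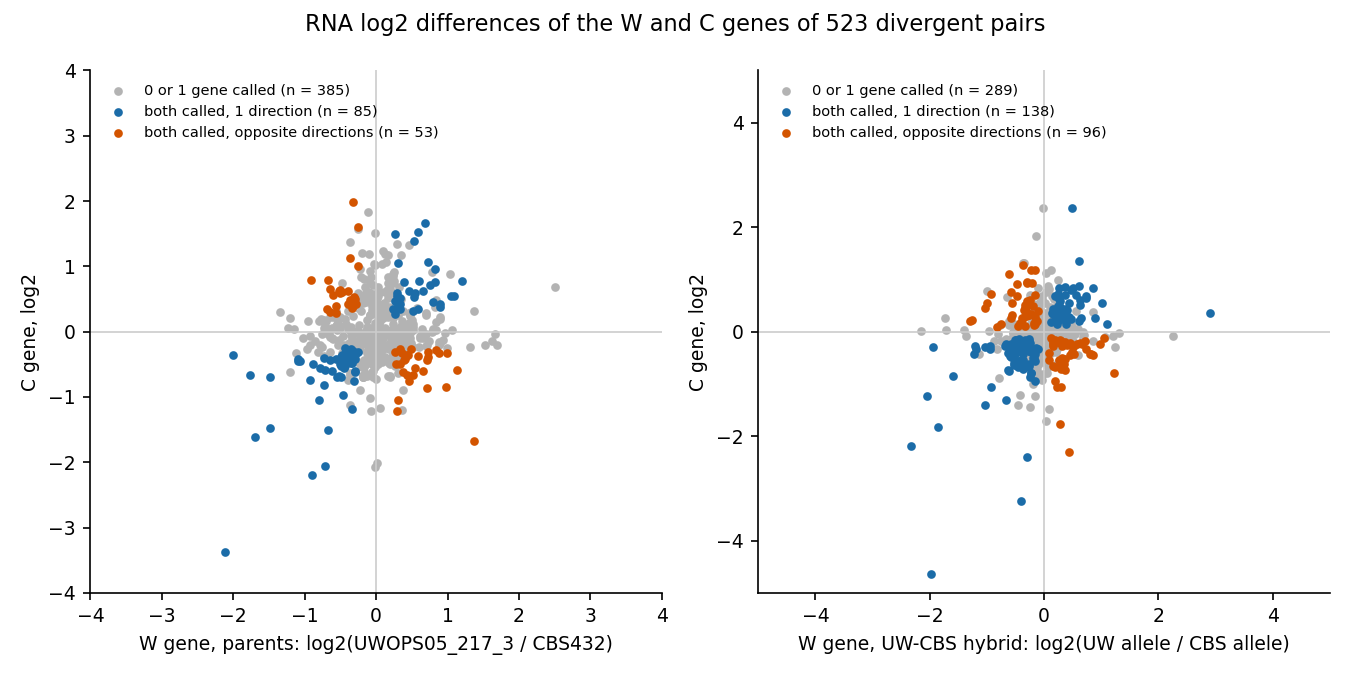
RNA log2 differences of the W gene (x) and the C gene (y) of 523 divergent pairs, in the parents (left) and between alleles of the UW-CBS hybrid (right). Blue points are pairs with both genes called in 1 direction (85 and 138) and orange points those called in opposite directions (53 and 96), and most pairs lie near the origin or along 1 axis.

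Compared with other neighbours at similar gaps, divergent pairs with a shared NFR had the higher correlation when their genes did not overlap and lay less than 500 bp apart. There r was 0.265 in the parents and 0.248 between alleles over 402 pairs. Tandem neighbours at these gaps had 0.087 and 0.105 (1217 pairs), convergent neighbours 0.032 and 0.050 (823 pairs), and divergent neighbours with no shared NFR 0.020 and 0.122 (98 pairs). With gaps of 500 bp or more every orientation had r between −0.011 and 0.097, and divergent pairs with a shared NFR had 0.014 and 0.008 (118 pairs). Overlapping genes are set apart here because they had r of 0.563 to 0.875, and their reads cannot be told apart. No test of a difference between these correlations was made.

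Within divergent pairs Pearson r over all pairs was highest where the start codons were closest, but between alleles this order rested on single pairs. Under 200 bp Pearson r was 0.477 in the parents and 0.392 between alleles (61 pairs), or 0.412 and 0.323 without the 3 pairs whose genes overlap. At 200 to under 300 bp r was 0.254 and 0.263 (166 pairs), at 300 to under 400 bp 0.215 and 0.184 (90 pairs), and at 400 to under 500 bp 0.184 and 0.218 (88 pairs). At 500 bp or more it was 0.014 and 0.008 (118 pairs). Spearman rho, in the same order of distance, was 0.298, 0.248, 0.208, 0.148 and 0.018 in the parents, and 0.107, 0.294, 0.195, 0.153 and −0.041 between alleles, where the closest pairs thus had a lower rho than the next 3 classes. Leaving out the pair farthest from 0 lowered r under 200 bp to 0.298 and 0.147, and at 400 to under 500 bp to 0.079 and 0.033, while at 200 to under 300 bp it was 0.222 and 0.271 and at 300 to under 400 bp 0.246 and 0.184. Over all 523 pairs r without that 1 pair was 0.175 in the parents and 0.167 between alleles. By library, r over all pairs was 0.156 and 0.240 in the hybrid libraries and 0.186 to 0.221 in the pairings of parental libraries, and at 500 bp or more it was −0.069 and 0.117 in the hybrid libraries.

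**Figure D4:**
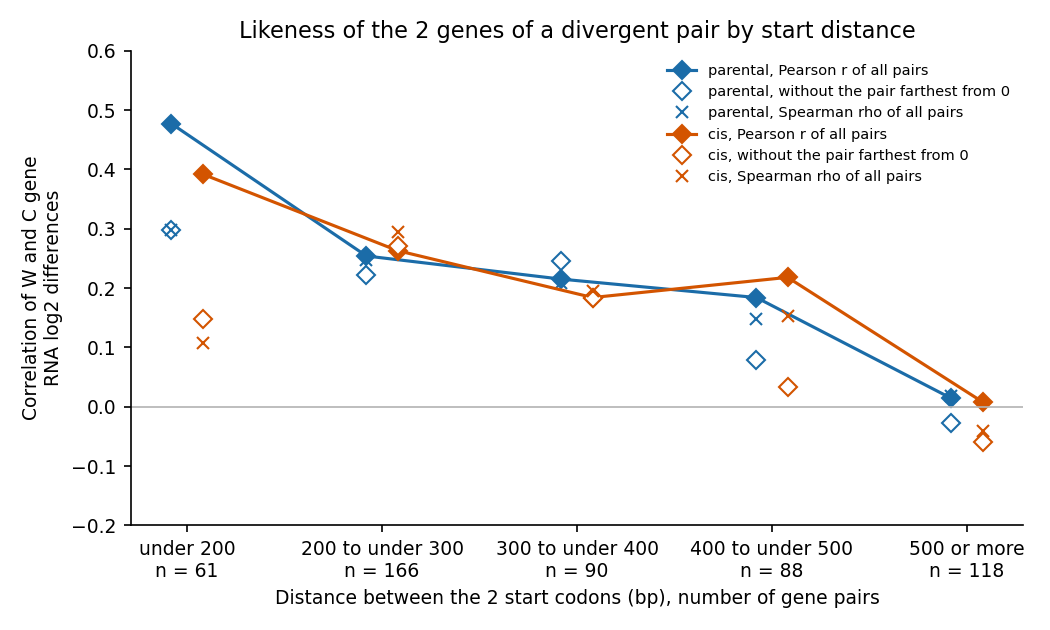
Correlation of the RNA log2 differences of the W and C gene (y) by the distance between their start codons (x, with the number of pairs), in the parents (blue) and between alleles (orange). Filled diamonds are Pearson r of all pairs, open diamonds Pearson r without the pair farthest from 0, and crosses Spearman rho, and under 200 bp, where 3 pairs of overlapping genes are included, the filled diamonds at 0.477 and 0.392 stand above the open ones at 0.298 and 0.147.

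The pair that carried the value under 200 bp was ARO5 and YGL118C, 61 bp apart (chromosome VII, 288395 to 288723), named here after its values were seen. ARO5 RNA was 40.5 and 39.2 CPM in UWOPS05_217_3 and 179 and 162 CPM in CBS432, and 12.9 and 16 CPM for the UW allele against 42.3 and 74.4 CPM for the CBS allele. YGL118C had much less RNA and the same order, with 0.498 and 0.623 CPM against 7.53 and 4.13 CPM in the parents, and 0.0822 and 0.151 CPM against 2.68 and 2.98 CPM between alleles. Its log2 differences of −3.37 ± 0.40 and −4.64 ± 0.58 and those of ARO5, −2.11 ± 0.10 and −1.97 ± 0.10, were all called, and neither gene overlaps another in the table. Their NFR had 205 and 162 CPM in UWOPS05_217_3 and 316 and 297 CPM in CBS432, and its log2 differences of −0.72 ± 0.30 and −0.32 ± 0.32 were not called. At 400 to under 500 bp the pair was YHL015W-A and DUR3, a urea and polyamine transporter, also named after its values were seen. DUR3 RNA was 18.1 and 20.3 CPM in UWOPS05_217_3 and 58.6 and 57.6 CPM in CBS432, log2 differences being −1.61 ± 0.13 for DUR3 and −1.70 ± 0.34 for YHL015W-A. The NFR between these genes is 3 bp wide and had no counts in any library, so its accessibility could not be compared.

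The third question was whether a difference in accessibility went with a difference in RNA at either gene, and the sizes of both were hardly related. Over the 526 NFRs, the FAIRE log2 difference and the RNA log2 difference had a Pearson r of 0.005 for the W gene and 0.070 for the C gene in the parents, and of −0.015 and 0.015 between alleles. The gene with the nearer start codon had 0.050 and 0.027, the gene with the farther one 0.028 and −0.025, and the mean of both genes 0.050 and 0.001. For NFRs upstream of 1 strand and their nearest gene r was 0.066 and 0.005 over 2206 NFRs. Of the gene places at called NFRs 48.7% (109 of 224) held a called gene in the parents and 61% (166 of 272) between alleles, and at other divergent NFRs 54.2% (449 of 828) and 70% (546 of 780). FAIRE and RNA of the haploid strains came from the same cultures.

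Joint calls showed every combination. Between alleles 49 NFRs were called with both genes, and in 14 of these the NFR and both genes had 1 direction, in 17 both genes went against the NFR, and in 18 the genes were opposite to each other. At 68 called NFRs 1 gene was called, 28 times in the direction of the NFR, and at 19 no gene was. Where the NFR was not called, both genes were called in 1 direction at 108 NFRs and in opposite directions at 78, a single gene at 174, and nothing was called at 30. In the parents the NFR and both genes were called at 23 NFRs, together at 11, both genes against the NFR at 7 and opposite to each other at 5. A single gene was called at 63 called NFRs, 36 times in the direction of the NFR, and no gene at 26. Where the parental NFR was not called, both genes were called in 1 direction at 67 and in opposite directions at 48. A single gene was called at 219 such NFRs, and nothing at 80.

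Of the 14 NFRs with 1 direction throughout, the 3 whose smallest effect was largest were those of GLK1 and YCL041C, SHR5 and MDY2, and NNF1 and PXP2, and the CBS allele was higher in all 3. At GLK1, glucokinase, and YCL041C (chromosome III, 50228 to 50811) the NFR had 66.9 and 70.1 CPM on the UW allele and 128 and 258 CPM on the CBS allele, a log2 cis effect of −1.41 ± 0.32 (adjusted p = 0.000163), and −1.33 ± 0.26 in the DBV-CBS hybrid (adjusted p = 0.00404). RNA of GLK1 was 21 and 33.4 CPM for the UW allele and 29.7 and 47.1 CPM for the CBS allele, which overlap between libraries and are ordered alike within each library. In RefSeq's annotation both genes overlap YCL042W, and YCL041C also overlaps PDI1, so their reads cannot be told apart from those genes. The cis effects of GLK1 and YCL041C were −0.50 ± 0.10 (adjusted p = 1.3e-06) and −0.55 ± 0.12 (adjusted p = 1.24e-05). In the parents the order for GLK1 was the opposite one, with 244 and 297 CPM in UWOPS05_217_3 and 82.9 and 83.2 CPM in CBS432, a log2 difference of 1.69 ± 0.11 (adjusted p = 2.64e-05), while YCL041C had −0.20 ± 0.22, which was not called. The FAIRE call was lost without hybrid replicate 2, at −0.94, and the RNA call of GLK1 when libraries were not paired. The RNA call of YCL041C was lost without hybrid replicate 1 or 2, at −0.53 and −0.57, and the FAIRE call in the DBV-CBS hybrid without either of its libraries, at −1.63 and −1.03.

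The other 2 were smaller. At SHR5, a subunit of the Ras palmitoyltransferase, and MDY2, a factor of tail-anchored protein insertion, the widest divergent NFR (chromosome XV, 108893 to 110050, 1157 bp) had 766 and 954 CPM on the UW allele and 1064 and 1287 CPM on the CBS allele. Its cis effect was −0.45 ± 0.17 (adjusted p = 0.0402), those of SHR5 and MDY2 RNA −0.45 ± 0.14 and −0.56 ± 0.07, and all 3 were called. At NNF1, a kinetochore protein, and PXP2, a peroxisomal protein (chromosome X, 636773 to 636886), the NFR had 101 and 76.9 CPM against 172 and 140 CPM, a cis effect of −0.81 ± 0.32 (adjusted p = 0.0437). In the DBV-CBS hybrid this NFR had a cis effect of 0.42 ± 0.30, which was not called. RNA of NNF1 was 43.6 and 41 CPM in UWOPS05_217_3 and 76.2 and 82.2 CPM in CBS432, and that of PXP2 46.1 and 42.2 CPM against 75.9 and 69.9 CPM, log2 differences of −0.92 ± 0.10 and −0.74 ± 0.10. Between alleles the cis effects on RNA were −0.49 ± 0.11 for NNF1 (adjusted p = 3.45e-05) and −0.31 ± 0.10 for PXP2 (adjusted p = 0.00508). The FAIRE calls of both NFRs were lost without either hybrid library, at −0.43 and −0.47 for SHR5 and MDY2 and at −0.86 and −0.76 for NNF1 and PXP2, and the RNA calls of SHR5, at −0.38 and −0.51, and of PXP2, at −0.36 and −0.27, were lost in the same way.

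The widest difference between genes called in opposite directions was at OMS1, a protein of the mitochondrial inner membrane, and IPK1, the inositol polyphosphate kinase that makes phytic acid (chromosome IV, 1093418 to 1093762, start codons 177 bp apart). IPK1 RNA was 23.9 and 25.6 CPM in UWOPS05_217_3 and 104 and 102 CPM in CBS432, and 8.9 and 9.85 CPM for the UW allele against 48.7 and 43.7 CPM for the CBS allele. OMS1 RNA was 184 and 141 CPM against 165 and 161 CPM in the parents, where the groups overlapped, and 110 and 100 CPM against 76.7 and 79.7 CPM between alleles. The cis effects were −2.30 ± 0.11 for IPK1 (adjusted p = 9.81e-49) and 0.43 ± 0.06 for OMS1 (adjusted p = 5.74e-11), and the difference between them was 2.73 ± 0.15 (adjusted p = 0.00113). Their NFR had 86.7 and 41.5 CPM on the UW allele and 69.1 and 40.5 CPM on the CBS allele, which overlap, and the cis effect of 0.19 ± 0.42 was not called. The call of OMS1 was lost without either hybrid library, at 0.33 without replicate 1 and 0.52 without replicate 2.

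PEX14 and LYS5 start 177 bp apart as well (chromosome VII, 216201 to 216441). RNA of LYS5, which activates an enzyme of lysine synthesis, was 10.6 and 10.5 CPM for the UW allele and 37.6 and 34.1 CPM for the CBS allele. RNA of PEX14, a docking protein of peroxisomal import that overlaps YGL152C in the table, was 44.2 and 42.7 CPM against 36.9 and 34.7 CPM. Neither gene had overlapping alleles, and the cis effects of −1.77 ± 0.11 (adjusted p = 2.78e-33) and 0.28 ± 0.09 (adjusted p = 0.00312) differed by 2.04 ± 0.13 (adjusted p = 0.00115). The NFR had 76.9 and 40.8 CPM on the UW allele and 79.4 and 54.5 CPM on the CBS allele, with a cis effect of −0.23 ± 0.41 that was not called. The call of PEX14 was lost without hybrid replicate 1, at 0.30, or replicate 2, at 0.26.

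THS1, the threonyl-tRNA synthetase, and AIR1, a zinc knuckle protein of the TRAMP RNA surveillance complex, start 494 bp apart (chromosome IX, 212091 to 212518). THS1 RNA was 97.3 and 93.2 CPM in UWOPS05_217_3 and 42.7 and 43.1 CPM in CBS432, and AIR1 RNA 10.6 and 12 CPM against 16.4 and 17.1 CPM. The groups did not overlap for either gene, and the same orders held between the alleles, at 46 and 46.7 CPM against 18.5 and 21.6 CPM for THS1 and 4.05 and 3.49 CPM against 6.74 and 6.35 CPM for AIR1. The difference between the genes was 1.72 ± 0.17 in the parents (adjusted p = 0.000605) and 2.01 ± 0.18 between alleles (adjusted p = 0.00199). The NFR had 555 and 569 CPM in UWOPS05_217_3 and 600 and 534 CPM in CBS432, and its log2 differences of 0.01 ± 0.30 and 0.36 ± 0.24 were not called. The AIR1 calls were lost in the parents without CBS432 replicate 2 (−0.55) or UWOPS05_217_3 replicate 1 (−0.49), and between alleles without hybrid replicate 2 (−0.73).

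Genes of 1 pathway can be set beside their divergent neighbours, and 4 groups had several members here. Ribosome biogenesis factors, which process ribosomal RNA and assemble the subunits, stood at divergent NFRs with 21 of the 68 genes listed in the table. In no pair were both genes on the list. The list was made from gene symbols, so genes off it, such as LCP5 or NAN1, may act in the same pathway, which was not checked. In the parents 18 of the 21 were called with more RNA in CBS432 and none with more in UWOPS05_217_3 (26.4% and 28.2% of all genes), with a median log2 difference of −0.48 against 0.01 over all genes. UTP11, MRD1 and DBP6 were not called, at −0.21, −0.24 and −0.09. Of the genes on the other side of their 22 NFRs, 4 were called with more RNA in UWOPS05_217_3 and 6 with more in CBS432. The NFRs themselves were called at 3 places toward UWOPS05_217_3 and 4 toward CBS432 (10.8% and 9.58% of all NFRs).

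NOP15, which acts in the maturation of the large subunit, had the largest of these differences, with 467 and 427 CPM in UWOPS05_217_3 and 707 and 715 CPM in CBS432. YNL109W on the other side, which overlaps YNL108C, had 76 and 87.1 CPM against 70.5 and 70.6 CPM. NOP15 lay apart between the strains at −0.69 ± 0.10 (adjusted p = 0.000623), YNL109W at 0.19 ± 0.11 was not called, and the log2 difference of YNL109W less that of NOP15 was 0.88 ± 0.15 (adjusted p = 0.00379). RRP43, a subunit of the exosome, stood beside RBK1, ribokinase, which had the widest difference of all partners. RBK1 RNA was 168 and 155 CPM in UWOPS05_217_3 against 82.7 and 77.7 CPM in CBS432, and RRP43 RNA 258 and 243 CPM against 304 and 320 CPM. Their NFR had 419 and 339 CPM in UWOPS05_217_3 and 179 and 193 CPM in CBS432, and the log2 differences were 1.04 ± 0.30 for the NFR (adjusted p = 0.0143), 0.99 ± 0.09 for RBK1 (adjusted p = 9.16e-05) and −0.33 ± 0.09 for RRP43 (adjusted p = 0.0121). The 6 partners called toward CBS432 all stood beside a called factor, where 18 of the 21 factors were called. They were LCP5, at −0.62 beside NSA2 at −0.60, and RPC37, at −0.49 beside DBP7 at −0.52. The others were YCG1 at −0.41, YJL009W at −0.34, YML094C-A at −0.31 and ICE2 at −0.29. Of the 4 called toward UWOPS05_217_3, RBK1, SHR3 and DFM1 also stood beside a called factor. YJL009W overlaps CCT8, and YML094C-A overlaps GIM5. The parental calls of both were lost without CBS432 replicate 1 (−0.31 and −0.36) or UWOPS05_217_3 replicate 1 (−0.22 and −0.26). The call of YML094C-A was also lost without CBS432 replicate 2 (−0.27). That of UTP14 was lost without either CBS432 library (−0.37 and −0.38) or without UWOPS05_217_3 replicate 2 (−0.24).

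In the hybrid the differences of these factors were smaller. Cis effects were called for 11 of the 21 with the CBS allele higher and for 2 with the UW allele higher, UTP11 and DBP6 (36.7% and 31.8% of all genes), and the median cis effect was −0.08 against −0.03 over all genes. Trans effects more toward S. paradoxus in the parents than in the hybrid were called for 11, and toward S. cerevisiae for none (10.6% and 15.3% of all genes). The median was −0.29 against 0.07. The largest trans effect was that of DBP7, a helicase, at −0.53 ± 0.09 (adjusted p = 0.00434), whose partner RPC37 had −0.34 ± 0.10 (adjusted p = 0.0331). UTP25 was the factor with the largest cis effect, −0.60 ± 0.05, and its trans effect of 0.01 ± 0.10 was not called.

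**Figure D5:**
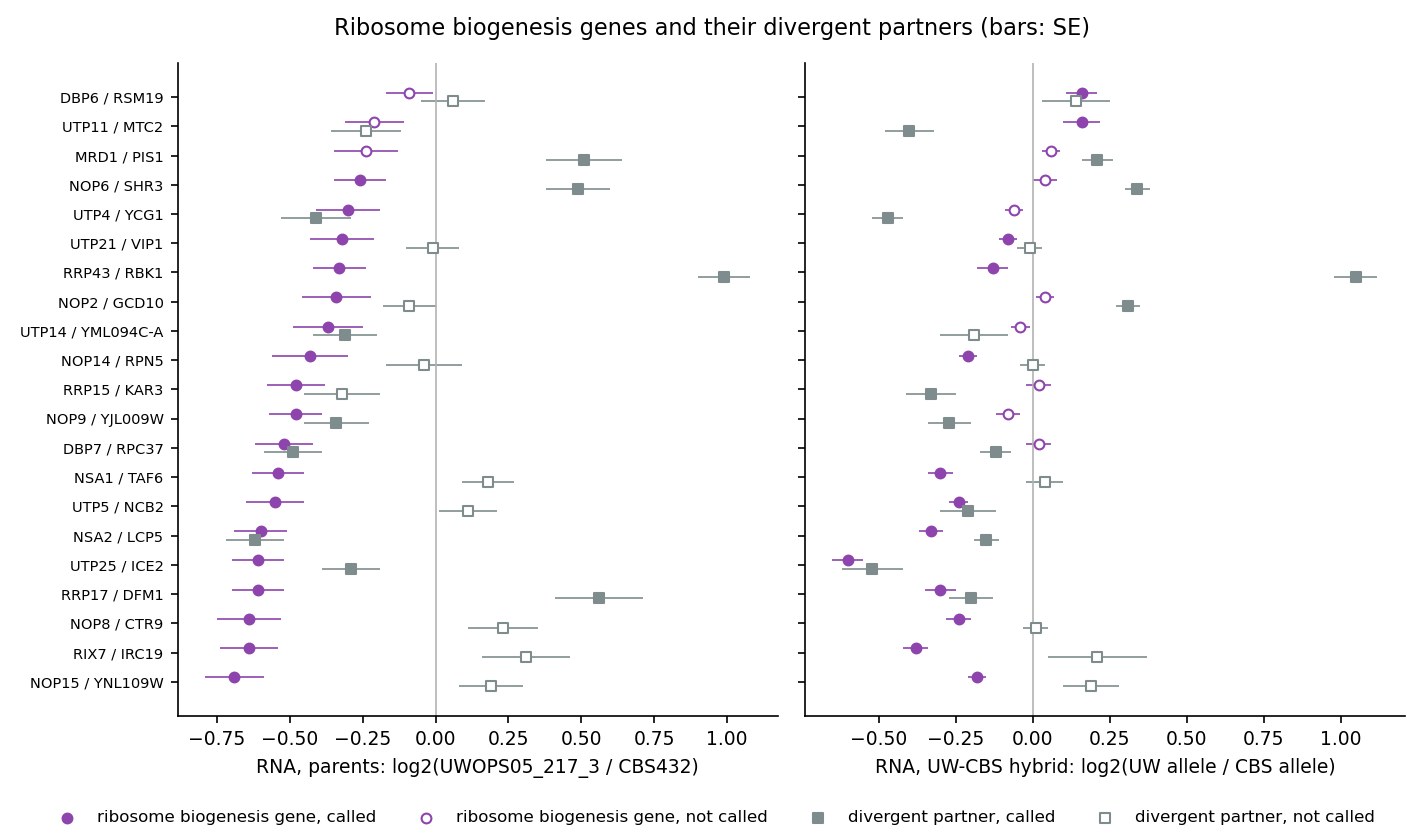
RNA log2 differences of 21 ribosome biogenesis genes (purple circles) and of the genes on the other side of their NFRs (grey squares), in the parents (left) and between alleles of the UW-CBS hybrid (right), with bars for the SE and filled marks for called differences. In the parents all 21 circles lie left of 0 and 18 are filled, while the squares lie on both sides.

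Mitochondrial ribosomal proteins stood at divergent NFRs with 16 of 55 listed genes. In the parents 9 were called with more RNA in CBS432 and none with more in UWOPS05_217_3, with a median of −0.27, and between alleles 4 were called in each direction, with a median of 0.00. Over all genes these shares were 26.4% toward CBS432 and 28.2% toward UWOPS05_217_3 in the parents and 36.7% and 31.8% between alleles, with medians of 0.01 and −0.03. MRPL28 had the widest difference, at −1.23 ± 0.10 in the parents (adjusted p = 4.34e-05) and −1.13 ± 0.08 between alleles (adjusted p = 3.7e-32), while its partner CMI8 had 0.05 ± 0.21 and −0.43 ± 0.40, neither called. MRPS8 was called in the parents at −0.67 ± 0.09 and its partner AIM36 at −1.51 ± 0.09. Partners of the 16 were called 3 times with more RNA in UWOPS05_217_3 and 6 times with more in CBS432.

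Proteasome subunits held 9 places among 30 listed genes, and 3 were called in the parents, PUP1 at −0.46, RPT4 at −0.35 and RPN9 at −0.33, all with more RNA in CBS432, where 26.4% of all genes were called in this direction. Between alleles 5 had more RNA from the CBS allele and 1, RPN7, from the UW allele (36.7% and 31.8% of all genes). PRE6, a subunit of the core particle, had −0.11 ± 0.09 and −0.01 ± 0.05, neither called, while YOL038C-A across its 2 NFRs had 1.84 ± 0.32 in the parents (adjusted p = 0.00173) and 2.37 ± 0.48 between alleles (adjusted p = 3.73e-06). Both NFRs of that pair were more open in UWOPS05_217_3, at 1.24 ± 0.42 (adjusted p = 0.0367) and 1.90 ± 0.49 (adjusted p = 0.00828).

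Cytosolic ribosomal proteins held 5 places of 29 listed genes, and in the parents RPL22B at −0.49 ± 0.09 was called (adjusted p = 0.00226) and the other 4 were not, against 26.4% of all genes called with more RNA in CBS432. The partners of 4 of them were called with more RNA in UWOPS05_217_3 (28.2% of all genes): VRP1 beside RPP0 at 0.83, RXT3 beside RPL31A at 0.57, GLN4 beside RPS28A at 0.47 and MIL1 beside RPL22B at 0.33. Of the 3 listed histone genes in the table, linker histone HHO1 was the single one at such an NFR, with −0.03 ± 0.08 in the parents. Its partner NAN1 had −0.68 ± 0.12 (adjusted p = 0.00178). The classical divergent pairs of galactose, vitamin B6 and allantoin genes were not among the 526 NFRs. Those of histone genes could not be, since the RNA table held neither gene of these pairs.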

How the data were processed

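The authors mapped FAIRE and RNA reads to strain assemblies (the submitters' notes name CASAVA, BWA and sacCer3), called NFRs within 300 bp upstream of start codons, filtered them by alignment, simulated reads and genomic DNA, and deposited whole-number counts per NFR or gene and per allele, with no normalization. The deposited CBS432 counts were made separately for the sites of each cross. The 8 RNA tables of the DBV cross were not used here, because 1890 of 5066 genes (37.3%) held 1 value in all 7 tables compared. Here W and C come from the systematic gene names, and symbols and overlaps from RefSeq R64 (4597 of 4995 genes matched). Coordinates are those of the files.

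Counts were tested with edgeR 4.0.16 (quasi-likelihood, Benjamini-Hochberg over all features, threshold 0.05) in R 4.3.3. Haploids were compared with TMM scaling and no replicate term. Alleles were compared within each hybrid library (library term in the model, both columns given the mean of their totals). The trans effect was tested as the interaction, with terms for the hybrid library and for the replicate number of the parents. The effects on 2 genes were compared by a gene by strain (or allele) term over all 5028 neighbouring pairs. RNA genes needed a mean count of at least 10, which all met. When tested on simulated data, of 200 changes of 1.5 (log2), 68.5% (FAIRE, parents), 71% (FAIRE, UW-CBS alleles), 100% and 99.5% (RNA) were found. Alternatives were DESeq2 1.42.0, limma 3.58.1 (pseudocount 0.5), other scalings, a mean count of 100, a threshold of 0.01, the replicate block, other windows, and leaving out libraries.

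Named were the 3 NFRs with the largest parental and cis difference in each direction (mean count at least 100, 1 direction in every replicate), the 3 widest pairs called in opposite directions, the 3 NFRs called with both genes in 1 direction by their smallest effect, and members at the limits. Of 8 classical divergent pairs none was a member, and only 3 had both genes in the RNA table. Genes of a list were named by size within it, after their values were seen. The members and lists were chosen with earlier results of these data known.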

Additional observations from a re-analysis of the deposited data

Results flagged for a closer look

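The parental log2 difference in RNA differed from the one between the hybrid's alleles, by edgeR's quasi-likelihood test of the interaction, for 12 genes named at divergent NFRs. NNF1 and PXP2 are the 1 pair of which both genes were among them.

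Among genes more toward S. cerevisiae in the parents than in the hybrid, GLK1 had the largest value, 2.20 ± 0.12 (adjusted p = 3.61e-06). Its log2 difference was 1.69 in the parents and −0.50 in the hybrid. ADE8, an enzyme of purine synthesis, had 1.10 ± 0.10 (0.84 and −0.24, adjusted p = 9.77e-05), LYS5 1.02 ± 0.14 (−0.76 and −1.77, adjusted p = 0.00117), SHR5 0.65 ± 0.18 (0.18 and −0.45, adjusted p = 0.0269) and ALG12 0.52 ± 0.09 (0.65 and 0.15, adjusted p = 0.00493).

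Other genes were more toward S. paradoxus in the parents than in the hybrid. PRI1, a subunit of DNA primase, had −0.66 ± 0.17 (0.09 and 0.79, adjusted p = 0.0212) and OMS1 −0.45 ± 0.13 (−0.02 and 0.43, adjusted p = 0.0293). TUF1 had −0.44 ± 0.08 (−0.39 and 0.07, adjusted p = 0.00426) and NNF1 −0.42 ± 0.13 (−0.92 and −0.49, adjusted p = 0.0474). PXP2 had −0.41 ± 0.12 (−0.74 and −0.31, adjusted p = 0.0379), NOP9 −0.38 ± 0.08 (−0.48 and −0.08, adjusted p = 0.00937) and UTP14 −0.32 ± 0.10 (−0.37 and −0.04, adjusted p = 0.0424). GLK1, ADE8 and LYS5 were called without any 1 of the 6 libraries, and the other 9 were not. PXP2 lost the call without each of the 6 (−0.46 to −0.37), NNF1 (−0.44 to −0.31) and SHR5 (0.55 to 0.71) without 4 of them. Without a hybrid library the call was lost for TUF1 (−0.44 and −0.44), UTP14 (−0.35 and −0.28) and NOP9 (−0.39 and −0.37) without replicate 1 or 2, for OMS1 without replicate 1 (−0.35), and for ALG12 (0.43) and PRI1 (−0.45) without replicate 2. Haploid and diploid cells differ in ploidy and mating type as well as in genome, and the part of either in these values was not tested.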

How the results depend on the processing

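Of the values of named genes and NFRs under the alternatives, 1503 kept their side of the threshold, 168 lost the call and 21 gained it. No value that was called in the main fit or the alternative changed sign. Changes of sign in values called in neither were not counted. Counts of called NFRs or genes moved more. In the parental comparisons the replicate numbers were not taken as pairs, since the labels name no shared batch. Deviations of same-numbered libraries correlated at 0.173 for FAIRE of UW and CBS, 0.275 for FAIRE of DBV and CBS and 0.280 for RNA. The trans fit did hold terms for the replicate number of the parents and for the hybrid library. With the replicate block the parental FAIRE calls went from 112 to 165 (UW) and from 35 to 97 (DBV). With no replicate block the cis FAIRE calls fell to 58 (UW) and 115 (DBV), and the cis pairs to 89 in 1 direction and 48 opposite. Without its replicate terms the trans fit called 126 genes, against 266 with them, and 10 and 2 trans pairs. DESeq2 called 84 NFRs for the UW cis effect and 57 for DBV against CBS. A threshold of 0.01 left 38, 76, 71 and 12 NFRs (UW parents, UW cis, DBV cis, DBV parents), 365 genes and 45 and 15 pairs in the RNA of the parents, 114 genes and 9 and 2 pairs for trans effects, and 155 and 144 pairs for the difference between the genes. Leaving out 1 library at a time gave 48 to 67 and 7 to 82 NFRs for the parents (UW, DBV), 421 to 523 genes in the RNA of the parents with 21 to 53 opposite pairs and r of 0.192 to 0.218, 94 to 370 genes with trans effects, 9 to 53 pairs with both in 1 direction and 1 to 20 opposite, and 189 to 200 pairs for the difference in the parents. For cis effects, where 1 hybrid library was left and the spread came from the parents, it gave 13 to 32 NFRs (UW), 2 to 5 (DBV), 254 to 263 genes, 19 to 25 pairs in 1 direction and 8 to 9 opposite; the difference between genes was not run with 1 hybrid library. With windows of 200 or 400 bp there were 438 or 620 members, with chromosome ends kept 594, and 21.2% to 21.8% were called in the parents. FAIRE depth limits the NFR calls: on simulated data 56% to 83% of changes by a log2 of 1.5 were found.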
